A study of Mus musculus with 2 samples.

Results

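Mitosis, the division of copied chromosomes between daughter cells, was described in the embryonic mouse limb through 44 genes of the mitotic machinery: cyclins and mitotic kinases, the spindle checkpoint, the kinetochore, spindle motors and the proteins of cytokinesis. The genes were chosen by symbol, as a list, with earlier results of these data known. All 44 were found among the 43346 Ensembl genes of the deposited tables. The study sequenced total RNA from limbs of B6NCrl embryos at embryonic day 12.5. Its single group had 2 biological replicates and no treatment. Replicate 1 was pooled from 88 embryos and replicate 2 from 68 embryos, each pool held male and female embryos, and each library began with 10 ng of RNA longer than 200 nt. Both replicates carry the same donor label, forelimb and hindlimb were not separated, and each library therefore averages many embryos and all limb cell types. Nothing in the labels says how the pools were collected relative to each other, so differences of the pools and of library preparation cannot be told apart.

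At the start of mitosis the kinase Cdk1, bound to A- and B-type cyclins, drives chromosome condensation and spindle assembly. Kinetochores then attach chromosomes to microtubules, and the spindle checkpoint holds back the anaphase-promoting complex until all are attached. Many of these genes are transcribed periodically, late in the cell cycle, so their RNA in a tissue is commonly read beside its proliferation. In the early limb bud the mesenchyme and the overlying ectoderm proliferate, and the cells that condense into cartilage and those that form muscle leave the cycle by steps.

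Depth allowed each of the 44 genes to be measured. The libraries held 29810026 and 29938721 expected counts, of which 3.28% in replicate 1 and 2.30% in replicate 2 were spike-in controls. Mitotic genes took 0.745% of the Ensembl counts in replicate 1 (95% exact binomial interval 0.742 to 0.748%) and 0.756% in replicate 2 (0.753 to 0.759%), and these intervals cover counting error only. The least counted of them had 1565 counts in replicate 1 and 1755 in replicate 2 (Cdc25c), and the most counted had 17749 and 19026 (Top2a). Of 4 markers each, all 4 of limb mesenchyme, cartilage, muscle, ectoderm, endothelium, red cells and macrophages reached a TPM of 1 (transcript abundance scaled by length and library) in both libraries, as did 3 of 4 of neurons and 2 of 4 of liver. The largest relative differences in summed marker level were for neurons, at 21.2 TPM in replicate 1 and 37.6 TPM in replicate 2, for liver, at 7.56 and 5.08 TPM, and for cartilage, at 692 and 589 TPM.

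All 44 mitotic genes were detected, taken as at least 1 TPM in both libraries, while 14507 of 43346 Ensembl genes (33.5%) were. That background includes non-coding genes, whereas the 44 are all protein-coding. Of protein-coding genes, 12702 were detected and 8771 were not. TPM scales counts by transcript length, so it is the scale on which genes are compared here. The median level of the 44 genes was 90.1 TPM (88.0 in replicate 1 and 92.2 in replicate 2), against 21.9 TPM over the 12702 protein-coding genes detected. Of the 44, 43 lay at or above percentile 50 of those 12702 genes, 30 at or above percentile 75 and 15 at or above percentile 90. In bulk tissue, more cells in mitosis and more RNA per cell cannot be told apart, and the level of a gene does not give the share of dividing cells.

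**Figure D1:**
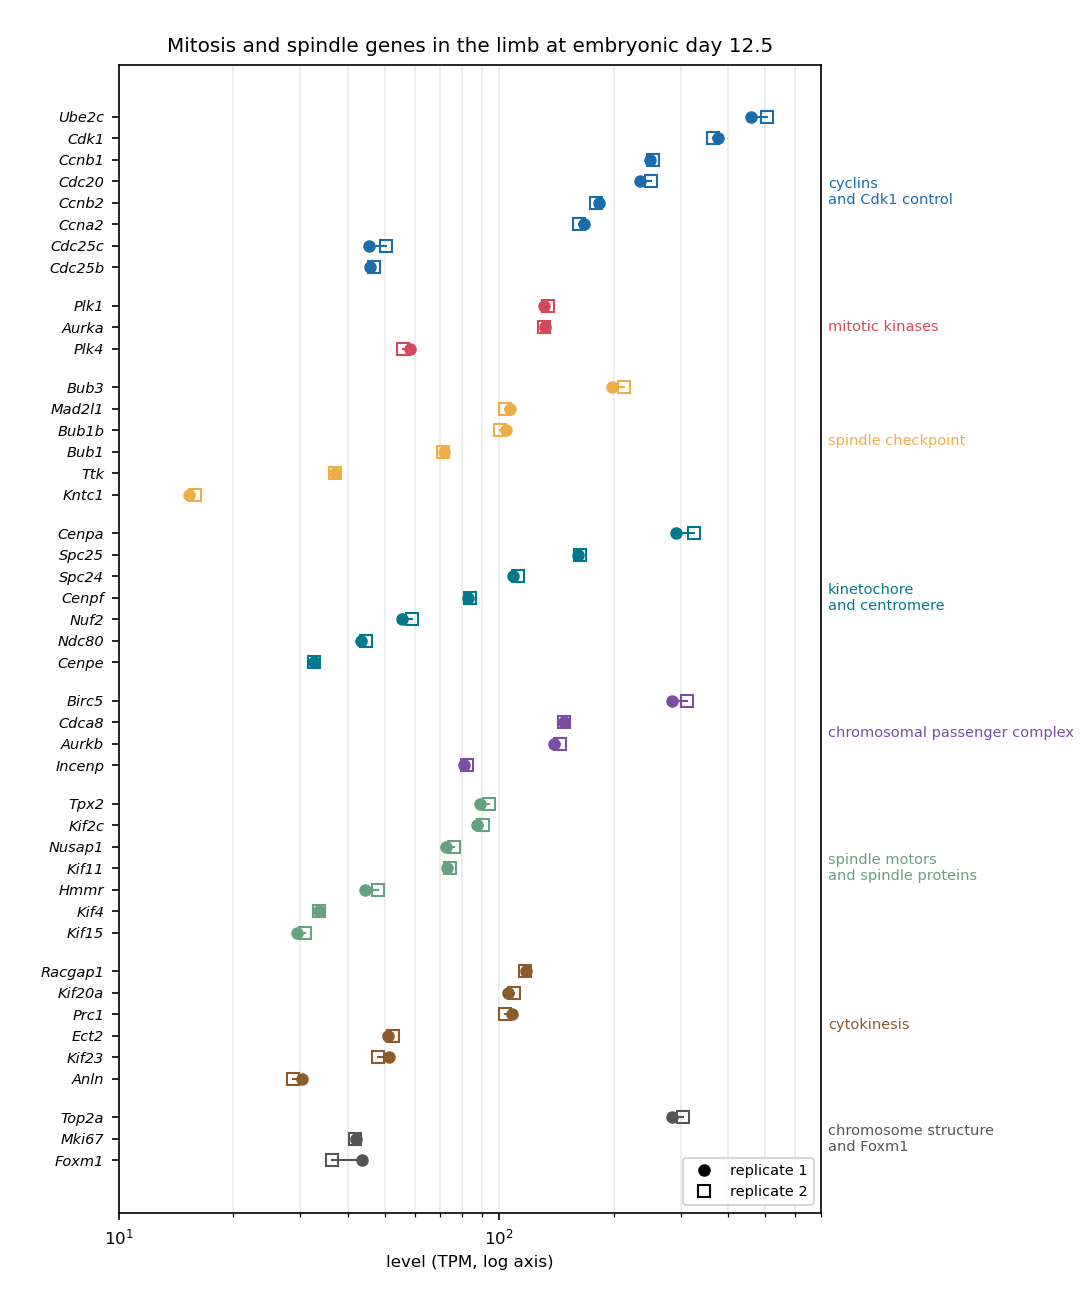
Level of each of the 44 mitotic genes in TPM on a log axis, arranged by role, with a point for each replicate library. Values run from Kntc1 at 15.3 and 15.85 TPM to Ube2c at 459 and 505 TPM, and the points of the libraries lie close together beside the spread between genes.

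Ube2c and Cdk1, which act in exit from and entry into mitosis, had the highest gene totals of the 44. From coding transcripts alone Ube2c was still first, but Cdk1, at 216 and 236 TPM, was below Birc5 at 285 and 311 TPM. On that scale Cdk1 was also below Ccnb1 (231 TPM) and Cdc20 (222 TPM) in replicate 1. In replicate 2 it was slightly above both, at 232 TPM for Ccnb1 and 234 TPM for Cdc20. Ube2c, the ubiquitin-conjugating enzyme that works with the anaphase-promoting complex, had 459 TPM in replicate 1 and 505 TPM in replicate 2. Its gene lies on chromosome 2 of mm10, bases 164769898 to 164778822 (ENSMUSG00000001403.9, plus strand). It ranked 253 among the 12702 detected coding genes, above the other 43 mitotic genes. Cdk1, the kinase at the centre of mitotic entry, had 375 and 364 TPM and ranked 360. Its partner Ccnb1, cyclin B1, had 249 and 253 TPM, and Ccnb2, the Golgi-associated cyclin B2, had 183 and 180.1 TPM. Ccna2, cyclin A2, which also acts in S phase, had 167 and 162.5 TPM. Cyclin B1 was thus the most abundant of the 3 cyclins in either library, at 1.36 and 1.41 times Ccnb2. Cdc20, which activates the anaphase-promoting complex, had 235 and 250.3 TPM. The phosphatases that remove inhibitory phosphates from Cdk1 were the low end of this class. Cdc25b had 45.7 and 46.8 TPM, and Cdc25c had 45.4 and 50.5 TPM. The ranges of these phosphatases overlapped in TPM, and their order depended on the scale. Cdc25b was 0.828 and 0.747 of Cdc25c from coding transcripts, but 1.36 and 1.23 times it without division by length.

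Among the mitotic kinases, the ranges of Plk1 and Aurka overlapped. Plk1, which acts at centrosomes, kinetochores and the midbody, had 131 and 135 TPM, and Aurka, the centrosomal Aurora kinase, had 132 and 131 TPM. Plk4, which starts centriole duplication, had 58.3 and 55.7 TPM, so Plk1 was 2.25 and 2.42 times Plk4 in TPM. The Plk1 to Plk4 ratio was 3.33 and 3.41 from coding transcripts, and 1.59 and 1.68 without division by length. Tpx2, the spindle protein that activates Aurka, had 88.8 and 93.7 TPM, and the Aurka to Tpx2 ratio was 1.48 and 1.40 in TPM but turned round on the log2 scale, to -0.49, where counts were not divided by length.

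The spindle checkpoint covered a wide range. Bub3, which brings its partners to kinetochores, had 198 and 213 TPM, well over Bub1b (104 and 101 TPM) and Bub1 (71.8 and 71.1 TPM), both of which bind it. The Bub3 to Bub1 ratio was 2.75 and 2.99 in TPM and 1.75 and 1.87 without division by length. Mad2l1, which encodes the checkpoint protein Mad2, had 107 and 104 TPM. Ttk, the kinase Mps1 that starts checkpoint signalling, had 37.0 and 37.1 TPM, so Mad2l1 was 2.88 and 2.80 times Ttk in TPM and 1.53 and 1.49 times it without division by length. Kntc1 (ENSMUSG00000029414.7, chromosome 5, bases 123749716 to 123821593, plus strand), a subunit of the complex that brings dynein to kinetochores, was the lowest of all 44 at 15.3 and 15.85 TPM. It was also the only mitotic gene in the lower part of the detected coding genes, at rank 7499.

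At the centromere and kinetochore, Cenpa, the histone H3 variant that marks the centromere, led in gene totals with 292 and 325 TPM, although from coding transcripts alone it had 113 and 125 TPM, below Spc25 at 149 and 149 TPM. The 4 subunits of the Ndc80 complex, which binds microtubules and is built in equal numbers, did not have equal RNA levels. Spc25 had 161 and 163 TPM, Spc24 108 and 112 TPM, Nuf2 55.6 and 59.0 TPM, and Ndc80 itself 43.4 and 44.7 TPM. The order of the 4 was the same in both libraries, without overlap between neighbours. The highest was 3.71 and 3.64 times the lowest in TPM, 3.43 and 3.34 times from coding transcripts alone, and 2.24 and 2.22 times in counts scaled to the library total without division by length. Cenpf, a large protein of the nuclear matrix and outer kinetochore, had 82.8 and 83.8 TPM, and Cenpe, the kinesin that carries chromosomes to the metaphase plate, had 32.6 TPM in each library.

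The chromosomal passenger complex, which corrects faulty attachments and later acts in cytokinesis, had unequal RNA levels in TPM. Its highest subunit was 3.52 and 3.78 times its lowest in TPM, also from coding transcripts alone, but 1.21 and 1.31 times in counts without division by length. Its small subunit Birc5, or survivin, had 285 and 311 TPM, which was 2.05 and 2.16 times the kinase Aurkb in TPM and 1.20 and 1.26 times it without division by length. Aurkb had 139 and 144 TPM, and Cdca8, or borealin, had 148 TPM in each library. The scaffold Incenp was lowest at 81.0 and 82.4 TPM, but in counts scaled to the library total without division by length it stood above Aurkb, by 0.20 on the log2 scale. Cdca8 and Aurkb were close enough that the authors' 95% credibility intervals overlapped in both libraries, and Cdca8 was below Aurkb, at a log2 ratio of -0.04, without division by length. Aurkb exceeded Aurka in TPM, with an Aurka to Aurkb ratio of 0.946 and 0.908, but Aurka was the higher one by 0.04 on the log2 scale without division by length and by 0.22 from coding transcripts alone.

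Spindle motors and other spindle proteins were of middle level. Tpx2 (88.8 and 93.7 TPM) and Kif2c (87.2 and 90.7 TPM), a kinesin that takes microtubules apart at centromeres, were highest, followed by Nusap1, which bundles spindle microtubules, at 72.5 and 75.9 TPM. Kif11, the motor that pushes spindle poles apart, had 72.8 and 74.3 TPM and did not separate from Nusap1. Hmmr, which helps to organise spindle poles with Tpx2, had 44.2 and 47.9 TPM and about 0.498 and 0.511 of the Tpx2 level. That share was 0.382 and 0.386 from coding transcripts, and 0.429 and 0.437 without division by length. Kif4, a chromosome-bound kinesin, had 33.6 TPM in each library. Kif15, which works beside Kif11, was lowest at 29.3 and 30.8 TPM.

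In cytokinesis, Kif23 had 51.3 and 47.9 TPM, which was 0.438 and 0.409 of Racgap1, with which it forms centralspindlin. That share was 0.473 and 0.437 from coding transcripts, and 0.549 and 0.507 without division by length. Racgap1 had 117 TPM in each library. Kif20a, which moves passenger proteins to the midzone, had 105 and 109 TPM, and Prc1, which crosslinks midzone microtubules, had 108 and 103 TPM. Ect2, the exchange factor that Racgap1 recruits to switch on RhoA, had 50.9 and 52.6 TPM, or 0.434 and 0.450 of Racgap1. Anln, anillin, the scaffold of the contractile ring, was lowest at 30.3 and 28.7 TPM.

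The remaining 3 genes act on chromosomes or on transcription. Top2a, the topoisomerase that untangles sister chromatids, had 285 and 304 TPM. Mki67, which coats mitotic chromosomes and encodes the proliferation marker Ki-67, had 42.1 and 41.65 TPM, or 0.148 and 0.137 of Top2a, a share that was 0.250 and 0.233 from coding transcripts and 0.443 and 0.412 without division by length. Foxm1, a transcription factor of late cell cycle genes, had 43.5 TPM in replicate 1 and 36.4 TPM in replicate 2. Among proliferation markers in common use, the levels thus differed widely per length.

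Promoters were examined for letters that the choice of genes did not use. Late cell cycle genes often carry a cell cycle homology region (CHR), the letters TTTGAA or less often TTCGAA, near the start of transcription, and CCAAT boxes, which the factor NF-Y binds, upstream of it. In cultured mammalian cells the CHR is bound by the repressing DREAM complex in resting cells and by B-Myb with its partner MuvB, joined by Foxm1, in dividing cells. Windows of 250 bases before and 50 bases from the annotated start were taken from RefSeq on GRCm38.p6, for 36 of the 44 genes. Aurkb, Ccna2, Cdc25c, Foxm1, Incenp, Kif20a, Spc24 and Tpx2 were not matched. Stretches of 150 bases, from 100 bases before to 50 bases from the start, are given for 11 genes. These stretches show the most abundant genes of several roles and a pair of abundant genes with neither TTTGAA nor TTCGAA (Ccnb1 and Birc5). Each reads 5′ to 3′ on the strand of its gene, and capitals mark CHR letters (TTTGAA or TTCGAA, or TTCAAA on the other strand) and CCAAT (or ATTGG on the other strand).
Cdk1, chr10:69352863-69353012, minus strand: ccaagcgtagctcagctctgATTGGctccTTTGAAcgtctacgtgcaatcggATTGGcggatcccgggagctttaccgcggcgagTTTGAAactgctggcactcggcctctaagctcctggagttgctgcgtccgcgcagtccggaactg
Ccnb1, chr13:100786437-100786586, minus strand: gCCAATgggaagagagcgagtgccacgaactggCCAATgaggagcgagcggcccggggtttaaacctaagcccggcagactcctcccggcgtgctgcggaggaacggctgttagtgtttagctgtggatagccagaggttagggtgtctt
Ccnb2, chr9:70421505-70421654, minus strand: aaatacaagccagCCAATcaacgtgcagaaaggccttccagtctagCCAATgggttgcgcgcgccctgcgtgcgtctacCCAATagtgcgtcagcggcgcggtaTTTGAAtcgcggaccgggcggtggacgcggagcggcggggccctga
Cdc20, chr4:118437294-118437443, minus strand: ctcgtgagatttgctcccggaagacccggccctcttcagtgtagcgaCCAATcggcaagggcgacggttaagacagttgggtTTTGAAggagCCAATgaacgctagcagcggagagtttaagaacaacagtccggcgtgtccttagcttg
Ube2c, chr2:164769829-164769978, plus strand: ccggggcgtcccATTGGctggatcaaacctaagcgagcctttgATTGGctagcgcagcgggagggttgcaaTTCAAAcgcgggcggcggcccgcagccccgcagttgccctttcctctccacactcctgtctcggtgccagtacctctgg
Plk1, chr7:122159335-122159484, plus strand: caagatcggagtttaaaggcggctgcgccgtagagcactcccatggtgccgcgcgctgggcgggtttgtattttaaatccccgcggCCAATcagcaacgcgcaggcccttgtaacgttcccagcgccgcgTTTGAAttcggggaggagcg
Cenpa, chr5:30666786-30666935, plus strand: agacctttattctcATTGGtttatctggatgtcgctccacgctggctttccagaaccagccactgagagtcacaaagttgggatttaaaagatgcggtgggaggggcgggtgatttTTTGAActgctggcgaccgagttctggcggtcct
Bub3, chr7:131560270-131560419, plus strand: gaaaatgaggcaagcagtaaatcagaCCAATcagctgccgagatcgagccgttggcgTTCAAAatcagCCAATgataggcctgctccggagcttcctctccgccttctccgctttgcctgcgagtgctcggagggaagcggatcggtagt
Racgap1, chr15:99651607-99651756, minus strand: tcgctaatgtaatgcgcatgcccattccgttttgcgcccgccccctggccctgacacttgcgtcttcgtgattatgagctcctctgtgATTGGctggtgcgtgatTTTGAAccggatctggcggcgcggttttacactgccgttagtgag
Top2a, chr11:99024140-99024289, minus strand: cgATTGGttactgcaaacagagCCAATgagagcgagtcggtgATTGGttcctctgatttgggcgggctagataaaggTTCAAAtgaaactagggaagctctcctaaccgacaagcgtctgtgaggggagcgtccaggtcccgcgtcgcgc
Birc5, chr11:117849137-117849286, plus strand: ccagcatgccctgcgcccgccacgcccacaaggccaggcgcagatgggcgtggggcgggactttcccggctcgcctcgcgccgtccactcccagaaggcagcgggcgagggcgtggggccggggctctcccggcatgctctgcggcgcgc

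In Cdk1 the CCAAT boxes of this stretch lie on the other strand and alternate with TTTGAA. Ccnb2 has 3 CCAAT boxes in a row upstream of its TTTGAA. Ube2c, Bub3 and Top2a carry the CHR of this stretch on the other strand. Ccnb1 has 2 CCAAT boxes here but neither TTTGAA nor TTCGAA, and Birc5 has none of these letters.

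Of the 36 genes, 29 held a CHR on either strand (80.6%), against 21.7% of the 27025 genes in the promoter table and 16.2% of 9923 detected protein-coding genes. The 7 without one belonged to Birc5, Ccnb1, Cenpe, Mad2l1, Nuf2, Nusap1 and Plk4. TTTGAA was found in 27 (75%, against 20.2% of the table) and TTCGAA in 4 (11.1%, against 1.80%). In 27 genes a CHR began within 50 bases of the start, or 75%, against 6.12% of the table. CCAAT was found for 27 genes (75%, against 41.1%), and a CHR with CCAAT in 25 (69.4%, against 8.61%). Only TTTGAA and TTCGAA were searched as CHR, so a gene counted without one may hold another form of it. These counts describe letters and not binding, and absence from a window says nothing of the gene's regulation.

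**Figure D2:**
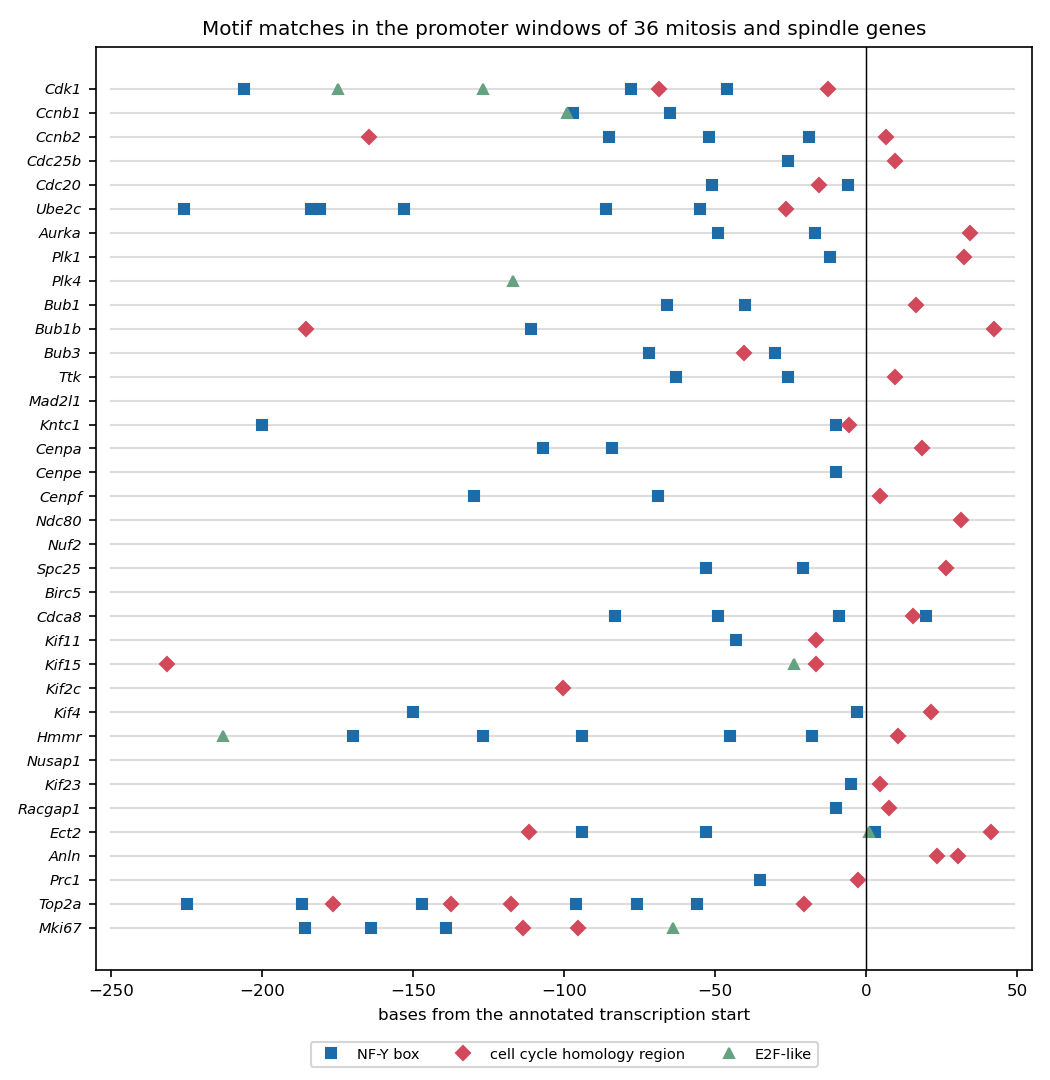
Positions of CHR letters (red), CCAAT boxes (blue) and E2F-like letters (green) in the windows of the 36 mitotic genes, as distance in bases from the annotated start. CHR sites gather near the start, with a median nearest site at 5, and CCAAT boxes lie mostly before them.

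Position was narrower than presence. Of 39 CHR sites in the mitotic windows, 28 began within 50 bases of the start (71.8%), against 24.7% of 6066 sites over all genes of the table, with 1 window a gene and the first base of the transcript counted as 0. The site nearest the start had a median position of 5. In 25 of the 29 genes a CCAAT box preceded that site. To the nearest such box the median distance was 35 bases between first bases, with a range from 4 to 153. In 14 of the 25 the distance lay between 25 and 45. At the distance of 4, in Kntc1, the CCAAT and CHR letters overlap. These distances were not computed for other genes of the table, so the counts have no background share beside them. E2F-like letters were found for 7 genes (19.4%), against 9.20% of the table and 17.1% of detected coding genes. They were searched as TTCCCGC, then as TTGGCGC, and also as TTCGCGC, on either strand. TTGGCGC on the other strand can share letters with CCAAT, as it does in Ccnb1.

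Other genes of the cell cycle, taken from lists, varied in this respect. Condensin, which compacts chromosomes, had a CHR in 6 of 7 windows (85.7%), other spindle and centriole genes in 12 of 25 (48%), and other kinetochore genes in 10 of 26 (38.5%). The anaphase-promoting complex had one in 3 of 15 (20%), close to the table's share. Paralogs of the mitotic genes had none in 11, and genes of cell cycle exit none in 8, although 7 of those 8 held CCAAT.

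**Figure D3:**
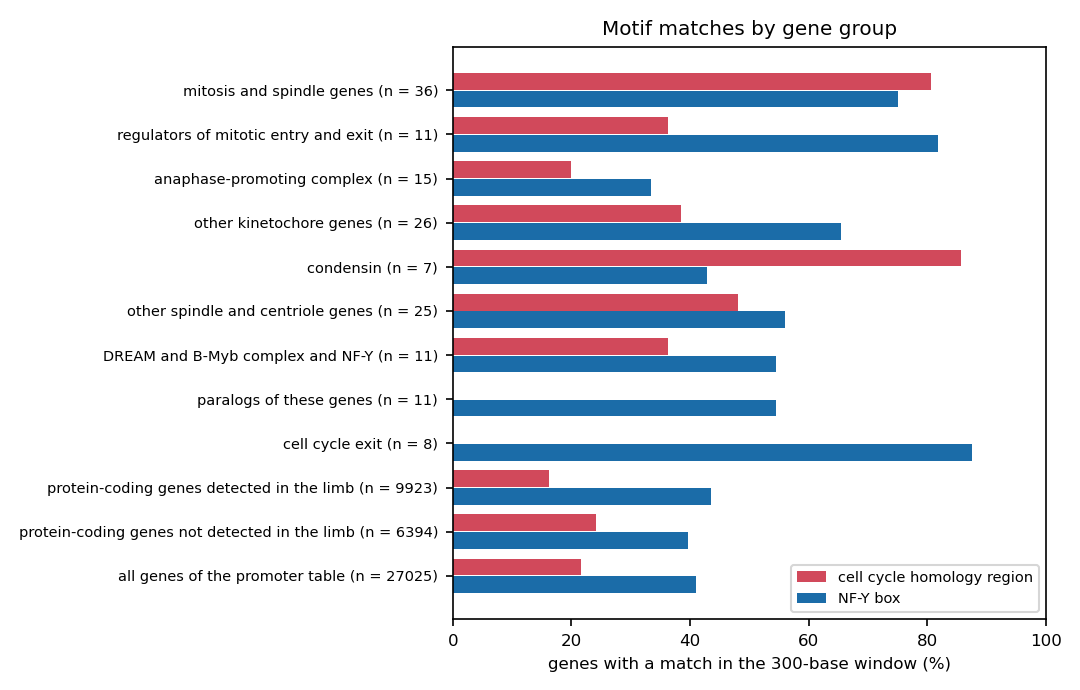
Share of genes, in percent, whose promoter window holds a CHR (red) or an NF-Y box, CCAAT (blue), for the mitotic genes, the other lists, detected and undetected protein-coding genes, and all genes of the promoter table. The mitotic genes (80.6%) and condensin (85.7%) have the highest CHR shares.

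Of 29 partner pairs compared, 27 had libraries that did not overlap in TPM, and the exceptions were Cdc25b with Cdc25c and Plk1 with Plk2. The share among other gene pairs was not computed. Mean levels of the 44 genes ran from 15.6 to 482 TPM, while their replicate log2 ratio had a median size of 0.0493. The count therefore says nothing particular about partners. With 2 libraries an exact test of a ratio cannot go below p = 0.5, so no p-value is given for a pair. Of the 22 pairs between mitotic genes, 19 also had credibility intervals that overlapped in neither library, and the other 3 were Cdc25b with Cdc25c, Aurka with Aurkb in replicate 1, and Cdca8 with Aurkb. The order of Cdk1 and Ccnb1 depended on the scale. Cdk1 was 1.51 and 1.43 times Ccnb1 in TPM, but from coding transcripts alone the ratio was 0.934 and 1.02, and in counts not divided by length it was 0.560 and 0.576.

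Of 11 paralogs of the mitotic genes 6 were detected, and those known for their part in the germ line were low. Ccna1, the cyclin A of meiosis, had 1.20 and 0.87 TPM, Ccnb3 had 0.06 and 0.10 TPM, and Aurkc had 0.05 and 0.12 TPM. Cdc20b and Kif2b, the paralogs of Cdc20 and Kif2c, were listed at 0 in both libraries. The last 4 of these genes rest on too few counts for a fold against the mitotic member. The 6 detected paralogs were Top2b, Plk2, Mad2l2, Kif2a, Plk3 and Plk5, and their levels differed widely. Mad2l2 had a mean of 87.8 TPM and Kif2a had 16.24 and 19.25 TPM. Plk3 had 2.04 and 2.3 TPM, and Plk5 had 1.08 and 1.03 TPM, near the level of Ccna1. Low levels were thus not confined to the germ-line paralogs. Top2a was 2.16 and 2.35 times Top2b, which had 132 and 129 TPM, but 1.35 and 1.46 times it from coding transcripts and 1.36 and 1.47 times without division by length. Plk1 did not separate in TPM from Plk2, a stress-responsive Polo-like kinase with 124 and 132 TPM, but was 0.820 and 0.795 of it without division by length. Kif2c was 5.37 and 4.71 times Kif2a, a related kinesin also used in neurons. The Kif2c to Kif2a ratio was 6.16 and 4.97 from coding transcripts, and 3.91 and 3.39 without division by length. Cdc25a, which acts earlier in the cycle, was listed with the regulators of mitotic entry and exit and not among the 11 paralogs. Cdc25b had 45.7 and 46.8 TPM against 40.4 and 37.1 TPM for Cdc25a. That order turned round to log2 ratios of -0.26 without division by length and -0.04 from coding transcripts.

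The replicate libraries gave closely similar levels. The log2 ratio of replicate 1 over replicate 2 in TPM had a median of -0.03 over the 44 genes, against -0.01 over the 14507 detected genes. Its median size was 0.0493, against 0.0715 over the 7499 protein-coding genes at least as abundant as the lowest mitotic gene. Replicate 1 was the higher library for 15 mitotic genes and the lower for 27, and 2 genes were equal. An exact conditional binomial test of rounded counts, two-sided and with Benjamini-Hochberg adjustment over 18580 genes, called 9 of the 44 at an adjusted p under 0.05, or 20.5%, where 16.4% of all tested genes were called. Among genes counted at least as often as the lowest mitotic gene the background was 30.3%. The share of mitotic genes called thus lay between these backgrounds.

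By direction, 2 were higher in replicate 1, or 4.55% against 9.3% of all tested genes, and 7 were higher in replicate 2, or 15.9% against 7.1%. These background shares were not matched for counts. Of the 7499 protein-coding genes at least as abundant as the lowest mitotic gene, 1001 were called higher in replicate 1 and 774 in replicate 2. None reached a fold of 1.5, with which 3.19% of tested genes were called, and none a fold of 2, with which 1.85% were. The test covers counting error only and compares these libraries, not conditions. An edgeR exact test called 0 of 18580 genes after adjustment, and 223 at an unadjusted p under 0.05, none of them mitotic. Its dispersion came from the same 2 libraries, so the difference tested is part of its spread, and its counts say nothing of the size of true differences. With 1 common dispersion it called 232 genes (1.25%), and 1316 at an unadjusted p under 0.05, with no mitotic gene in either count. Marker levels of cartilage and neurons and the share of spike-ins also differed between the libraries, as given above, and their part in these differences was not tested. Transcript length and the log2 ratio had a Spearman correlation of 0.222 across the 44 genes and 0.115 across the 12702 detected coding genes, which share their libraries and are not independent replicates.

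**Figure D4:**
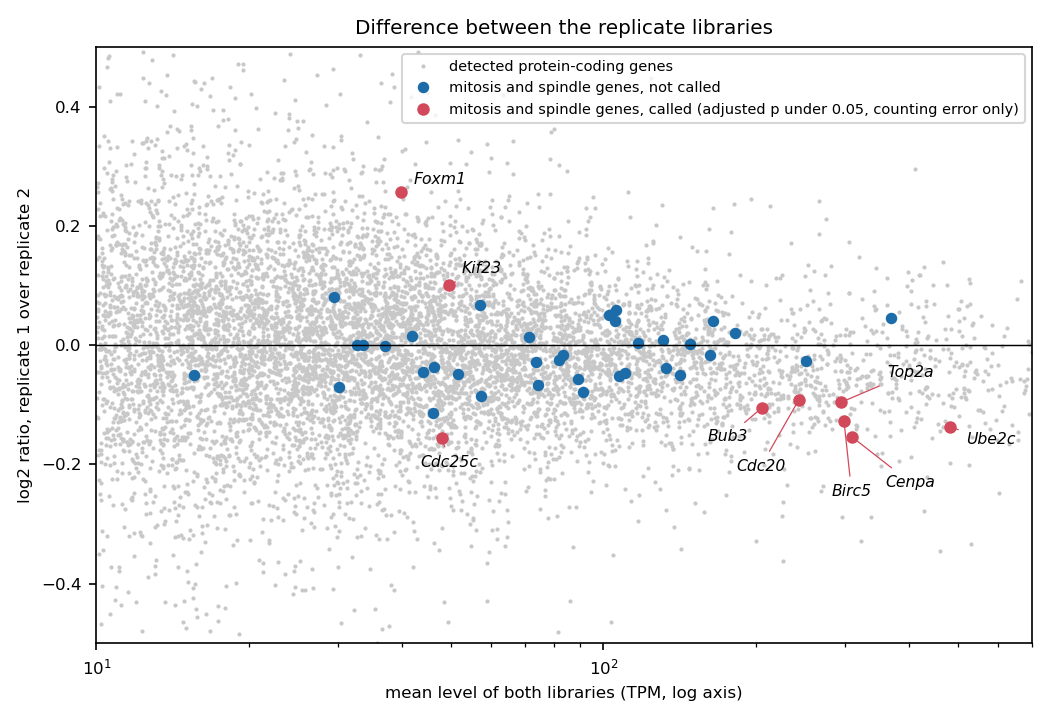
Log2 ratio of replicate 1 over replicate 2 against the mean level in TPM (log axis) for detected protein-coding genes in grey and mitotic genes in colour, with called ones in red and named. Of 8662 genes between 10 and 700 TPM, 85 lie beyond the vertical axis of 0.5 on either side, and none of these is mitotic.

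Foxm1 differed most, with 43.5 TPM in replicate 1 and 36.4 TPM in replicate 2, a log2 ratio of 0.26 (binomial adjusted p = 1.11e-08). Foxm1 (ENSMUSG00000001517.10) lies on chromosome 6, bases 128362967 to 128376146, and its exons share 144 bases with Tex52, which had 0.32 and 0.64 TPM. Its expected counts were not whole, as happens where reads fit more than 1 gene. Kif23 followed in this direction at 51.3 and 47.9 TPM, a log2 ratio of 0.10 (binomial adjusted p = 0.0193, and 0.0604 with DESeq2's size factors). Anln, Plk4 and Prc1 were next in replicate 1, with log2 ratios of 0.08, 0.07 and 0.06, and were not called. In the other direction, Cdc25c had 45.4 TPM in replicate 1 and 50.5 TPM in replicate 2, the largest of these log2 ratios at -0.15 (binomial adjusted p = 0.0287). Cenpa, Ube2c and Birc5, 3 of the most abundant mitotic genes, had log2 ratios of -0.15, -0.14 and -0.13 and binomial adjusted p-values of 8.4e-06, 1.37e-06 and 0.000826. Hmmr, at -0.11, was not called. Top2a, Bub3 and Cdc20 were the other called genes higher in replicate 2, with log2 ratios of -0.10, -0.11 and -0.09. The promoter stretches given above hold TTTGAA or TTCGAA for Cenpa, Ube2c, Top2a, Bub3 and Cdc20 and neither for Birc5. Over all mitotic genes with a window, 29 of 36 (80.6%) held one of them. Cdc25c and Foxm1 had no window, and a link of these letters with the differences was not tested. Between these libraries, then, called mitotic genes differed by at most 0.26 on the log2 scale.

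Transcript models differed in how far they carry the gene level. Of the 44 genes, 30 had at least 2 annotated transcripts, and the major one, with the largest share of the gene's TPM, was the same in both libraries for 29 (96.7%, against 90.6% of 9313 detected coding genes). The exception was Ect2, where Ect2-202 held 53.2% in replicate 1 and 41.6% in replicate 2, while Ect2-203 held 38.7% and 43.2%. Protein-coding models held a median of 92.2% of TPM, against 90.6% in the background. In 8 of the 30 genes they held less than 80%, or 26.7%, against 34.4% in the background.

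**Figure D5:**
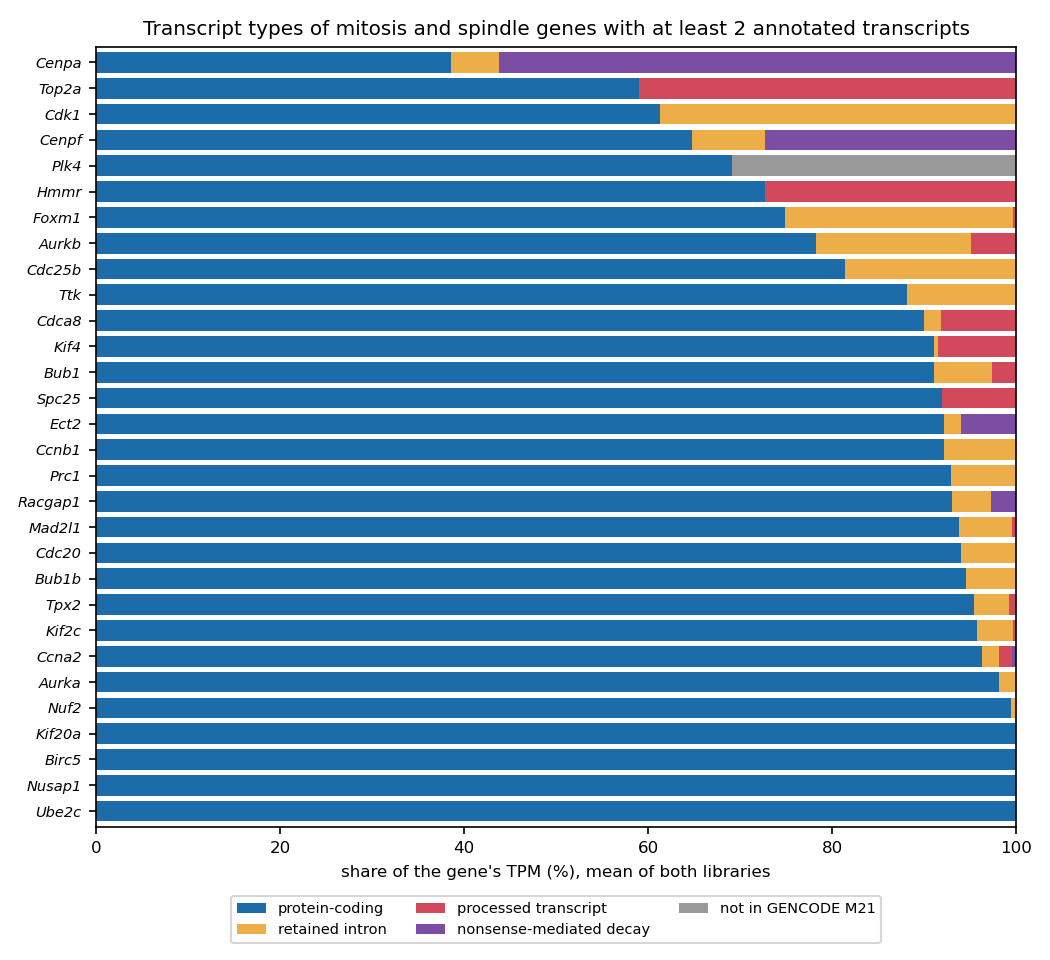
Share of each gene's TPM by annotated transcript type, in percent, for mitotic genes with at least 2 transcripts, as the mean of both libraries. Cenpa, with 38.5% and 38.6% from coding models, has the lowest coding share, and 8 of the 30 genes lie below 80%.

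Cenpa had the smallest coding share. Its most abundant model was Cenpa-202, annotated as a target of nonsense-mediated decay, with 46.1% and 44.3% of its TPM. The coding model Cenpa-205 held 38.2% and 37.7%, so that coding models of Cenpa reached 113 and 125 TPM out of the gene's 292 and 325. For Top2a, the coding model Top2a-201 of 5221 nt had 169 and 179 TPM. Its non-coding models, several of them short, held 40.8% and 41.2% of its TPM but 8.81% and 9.17% of its counts, so division by length decides most of their share. For Cdk1, the retained-intron models Cdk1-203 of 378 nt and Cdk1-204 of 475 nt held 21.8% and 19.5% of TPM in replicate 1 and 18.2% and 15.8% in replicate 2. Coding models of Cdk1 had 216 and 236 TPM, an order between libraries opposite to that of the gene total, 375 and 364 TPM.

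Cenpf was another case in which length mattered. Its full model of 11130 nt, Cenpf-204, had 14.4 TPM in each library, whereas Cenpf-203 of 3001 nt had 38.5 and 39.2 TPM. The other coding shares under 80% belonged to Plk4 (67.4% and 70.9%), Hmmr (73.8% and 71.6%), Foxm1 (74.7% and 74.96%) and Aurkb (78.1% and 78.5%). For Plk4 the rest sat in models that the later annotation no longer holds. Total RNA includes unspliced precursors, and how much of the retained-intron signal they give was not tested.

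Shared and overlapping sequence limits some values. Counts were whole, within 0.005, in both libraries for 33 of the 44 genes, and not whole for the other 11, namely Ccna2, Ccnb1, Cdc20, Ube2c, Plk1, Plk4, Kif4, Nusap1, Kif20a, Top2a and Foxm1. Of the called genes, 5 had whole counts. Pseudogenes of 3 members were listed separately, with Ccnb1-ps at 1.29 and 1.35 TPM, Ccnb2-ps at 3.00 and 2.01 TPM and Kif4-ps at 0. Exons of 12 members overlapped another gene, most often on the opposite strand, and reads of such partners cannot be told apart here because no source used here gives the strand setting. The longest overlap was of Kif20a with Cdc23, a subunit of the anaphase-promoting complex, over 1271 bases, and Cdc23 had 138 and 148 TPM. Neither had whole counts, with 6851.11 and 7150.63 for Kif20a and 7986.89 and 8189.37 for Cdc23. The level of Kif20a may thus rest on how shared reads were divided. Kif4 shared 832 bases with Pdzd11, Prc1 911 with Rccd1, Cdc25c 623 with Gm3550, Ube2c 592 with the muscle gene Tnnc2 and Ccna2 510 with Exosc9.

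RNA levels of the surrounding machinery were given by the same lists. All 14 regulators of mitotic entry and exit were detected, with a median of 62.1 TPM. Cks1b, a small Cdk-binding protein, had 481 and 522 TPM, Arpp19, an inhibitor of the phosphatase that opposes Cdk1, had 296 and 319 TPM, and Mastl, the kinase that switches Arpp19 on, was lowest at 11.1 and 12.8 TPM. All 16 genes of the anaphase-promoting complex were detected, with a median of 117 TPM. Its chain-elongating enzyme Ube2s had 391 and 384 TPM, the subunit Anapc5 295 and 308 TPM, and Anapc10 was lowest at 16.2 and 16.5 TPM. Ube2c, which starts the chains that Ube2s extends, was thus above Ube2s in TPM in both libraries. The binomial test of counts called 2 of the 14 regulators, 1 in each direction, and 3 of the 16 complex genes, where 16.4% of all tested genes were called. Of these 3, Anapc5 and Cdc26 were higher in replicate 2. Anapc1 was higher in replicate 1 by counts, but its gene total was lower there, at 73.2 and 75.4 TPM. From coding transcripts alone Anapc1 had 62.0 and 58.3 TPM, the order of its counts.

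All 29 other kinetochore genes were detected, with a median of 41.9 TPM, from Zwint (233 and 239 TPM) and Pmf1 (121 and 126 TPM) down to Cenpb, which binds centromere repeats, at 9.67 and 12.5 TPM. Between libraries 8 of them were called by the binomial test, all higher in replicate 2, the direction in which 7.1% of tested genes were called. That share was not matched for counts. All 8 condensin genes were detected, with a median of 121 TPM and none called. Smc2 led in gene totals at 198 and 197 TPM, before Ncapd2 at 186 and 193 TPM. From coding transcripts alone Smc2 had 62.5 and 62.25 TPM, below Ncapd2 at 106 and 107 TPM. Ncapg2 was lowest at 20.6 and 21.1 TPM. All 26 other spindle and centriole genes were detected at a lower median of 27.2 TPM, from the microtubule regulator Tacc3 (213 and 230 TPM) and the chromokinesin Kif22 (120 and 127 TPM) to the motor Kifc1 (5.80 and 6.46 TPM), and 6 were called, 3 in each direction, where 16.4% of all tested genes were.

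The factors known to act through the CHR and CCAAT letters were also present. All 14 genes of the DREAM, B-Myb and NF-Y list were detected, with a median of 36.6 TPM, from the histone-binding protein Rbbp4 (473 and 508 TPM) and the E2F partner Tfdp1 (149 and 151 TPM) to the pocket protein Rbl2 (11.7 and 11.9 TPM), and 3 were called by counts, namely E2f4, Lin54 and Rbbp4, where 16.4% of all tested genes were. All 3 had the larger share of counts in replicate 1, while the gene total of Rbbp4 in TPM was lower there. From coding transcripts alone Rbbp4 had 164 TPM in replicate 1 and 132 TPM in replicate 2, the order of its counts. In replicate 2 that coding level was below Tfdp1 at 151 TPM. All 9 genes of cell cycle exit were detected beside the mitotic genes, with a median of 22.8 TPM and 1 call, of Cdkn1c, which was higher in replicate 1, the direction in which 9.3% of all tested genes were called. The growth-restraining inhibitor Cdkn1c stood far above the rest at 920 and 884 TPM, higher than Ube2c, while Cdkn1a, the inhibitor p21, had 58.1 and 53.1 TPM and Cdkn2c 2.69 and 2.75 TPM. Genes of division and of exit were thus both measured in these whole limbs, and which cells hold which was not measured.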

How the data were processed

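Total RNA of 2 limb pools, 1 group, was sequenced, and the authors deposited a gene and a transcript table for each library. The expected counts the authors deposited are estimates that need not be whole, per the file headers, and were rounded for count tests. The deposited TPM values are divided by effective length and scaled to the same sum in each library, with spike-ins among the rows, and the deposited FPKM values by length and reads. Credibility bounds of TPM, deposited as a score for each bound, belong to the posterior mean. The percent values the authors deposited give each transcript's share of its gene. Per the labels and the text files, reads were placed on mm10 with GENCODE M4. Not given in the sources used here are the strand setting, the quantifier and the aligner.

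The tables held 69691 rows, with 43346 Ensembl genes, 97 spike-ins and 26248 numeric identifiers, and 42462 Ensembl genes were named from GENCODE M21 by identifier without version, on the same assembly. Totals of 29810026 and 29938721 counts set the precision. No molecular identifiers are recorded, so intervals and p-values cover counting error only. A chi-square of 7.20 per gene over 15042 genes set the libraries apart beyond sampling noise.

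Detected meant at least 1 TPM in both libraries. Log2 ratios added 0.1 TPM. Libraries were compared over genes with at least 10 counts in sum by an exact conditional binomial test with Benjamini-Hochberg adjustment, called under 0.05. It was tried on simulated data with counting error only, which cannot show how it behaves under the spread between these libraries. With 1 group, edgeR's quasi-likelihood test has no residual degrees of freedom, so edgeR's exact test, with a dispersion estimated from the same libraries, served as an alternative (common biological coefficient of variation 0.0718). Pairs were called apart where the libraries of the genes did not overlap. Motifs were searched on both strands in RefSeq promoter windows (GRCm38.p6), counting a gene once over its windows. The text gives all 44 genes, both genes of each pair, the 5 largest ratios in each direction, and the 2 highest and the lowest of each other list. Members, lists and pairs were chosen with earlier results of these data known. The software was Python 3.11.15 (matplotlib 3.10.9, pandas 2.3.3, scipy 1.17.1, numpy 2.4.6) and R 4.3.3 (DESeq2 1.42.0, edgeR 4.0.16).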

Additional observations from a re-analysis of the deposited data

How the results depend on the processing

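The median level of 90.1 TPM became 56.7 as FPKM, 109 with TPM rescaled over protein-coding genes and 86.1 from protein-coding transcripts, and 88.0 to 92.2 when a replicate was left out. All 44 genes stayed detected under each alternative run. Of the 9 calls between libraries, 0 passed a fold of at least 1.5, 0 a fold of at least 2, 0 edgeR's exact test and 0 the same test with 1 common dispersion (both estimate the spread from the libraries compared), and 5 were left among members with whole counts. DESeq2 size factors kept 8 and TMM totals, posterior mean counts and other count minimums 9. Without division by length, the log2 ratio turned round for Cdk1 over Ccnb1 (-0.82), Aurka over Tpx2 (-0.49), Aurka over Aurkb (0.042), Incenp over Aurkb (0.20), Cdca8 over Aurkb (-0.035) and Cdc25b over Cdc25a (-0.26). From coding transcripts it turned round for Cdk1 over Ccnb1 (-0.035), Aurka over Aurkb (0.22) and Cdc25b over Cdc25a (-0.043). Pairs that overlapped in TPM came apart for Cdc25b over Cdc25c (0.37 without division by length, -0.35 from coding transcripts) and Plk1 over Plk2 (-0.31 without division by length), and Cdc20 over Ube2c overlapped without division by length (-0.09). Transcript annotation and length scaling set these values by construction. The alternatives on coding transcripts, common dispersion and whole counts were added after the data were seen. No paired analysis was possible because there is 1 group. Comparisons of the libraries need both and have no value with 1 left out.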
